A study of Mus musculus with 7 samples.

Results

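The 9 myelin genes *Mbp*, *Mobp*, *Mag*, *Mog*, *Cnp*, *Cldn11*, *Opalin*, *Ermn* and *Mal* were taken by name from the 55536 genes of the count tables, and all 9 were found once. Their transcripts were followed in 4160 oligodendrocyte nuclei among 43885 hippocampal nuclei, and in the nuclei of other cell types and in barcodes with very few transcripts, where a myelin transcript can be free RNA. The study barcoded hippocampal cells and nuclei of wild-type (WT) and Arctic48 (Arc) mice by split-pool RNA-seq, in which a nucleus is named by the wells it passes through. Arc mice are hemizygous for a human APP transgene with the Indiana, Swedish and Arctic mutations on a C57BL6/J background, and the WT mice are animals of the same crosses without the transgene, whose promoter is not given in the sources used here. PMX205, a cyclic hexapeptide antagonist of the complement receptor C5aR1, was given in the drinking water at 20 µg/ml, and the vehicle was water. The labels give 12 weeks of treatment, but the sources used here differ on it for these mice, so its length is uncertain. Mice were 10 months old at perfusion. WT mice on vehicle (WT-veh) or PMX205 (WT-PMX) and Arc mice on either (Arc-veh, Arc-PMX) made up the 4 groups, and each group had 6 first-round wells of nuclei, of which F1, F2 and F3 held females and M1, M2 and M3 held males. Each of these wells held nuclei of 1 mouse, so the well was the replicate.

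Myelin is the multilayered membrane that oligodendrocytes wrap around axons. Its compaction depends on Mbp, a basic protein that draws the cytoplasmic faces of the membrane together, and Mobp is a related small basic protein of compact myelin. Mag and Mog are immunoglobulin-like proteins of the inner and the outermost surface, Cnp is an enzyme of the cytoplasm-filled channels, Cldn11 forms the tight junctions between the wraps, and Opalin, Ermn and Mal are a sialoglycoprotein of oligodendrocytes, an actin-binding protein of the sheath and a proteolipid of membrane traffic. Mature oligodendrocytes switch these genes on together under the transcription factors Sox10 and Myrf, and their progenitors (OPCs) hold them low.

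On the GENCODE annotation of build mm10, *Mag* lay at chr7:30899176-30914873 on the minus strand and *Cldn11* at chr3:31149920-31164324 on the plus strand. These were the members that differed between Arc-veh and WT-veh oligodendrocyte nuclei, and the 250 bases before the first listed start of each are shown for that reason. The sequences are from RefSeq on GRCm38.p6 and run 5′ to 3′ on the strand of the gene. Capitals mark matches, on either strand, to the SOX core ACAANG or to the Myrf motif CTGGNAC.
Mag, chr7:30914923-30915172, minus strand: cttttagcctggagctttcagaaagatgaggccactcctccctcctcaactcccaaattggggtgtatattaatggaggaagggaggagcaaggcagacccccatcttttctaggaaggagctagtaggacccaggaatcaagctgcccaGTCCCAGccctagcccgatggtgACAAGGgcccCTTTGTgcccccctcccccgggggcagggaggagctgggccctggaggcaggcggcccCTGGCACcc
Cldn11, chr3:31149670-31149919, plus strand: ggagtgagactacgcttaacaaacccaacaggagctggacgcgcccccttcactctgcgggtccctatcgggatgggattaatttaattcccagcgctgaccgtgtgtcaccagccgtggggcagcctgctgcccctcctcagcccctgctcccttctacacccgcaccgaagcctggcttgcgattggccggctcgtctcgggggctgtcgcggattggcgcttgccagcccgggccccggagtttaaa
The *Mag* window held 2 matches to each motif, and the pairs did not overlap each other. The *Cldn11* window held 0 matches to either motif. Among 32817 windows of the same length before listed starts, 36.3% held the SOX core and 16.1% the Myrf motif. Of the other members, *Mobp* had 6 SOX core matches and 0 Myrf matches, *Mog* 1 and 1, *Cnp* 1 and 2, *Opalin* 1 and 0, *Ermn* 2 and 0, and *Mal* 0 and 0. A match is a run of letters, not a measured binding site, and these data hold no measure of binding.

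The other members lay at chr18:82475146-82585637 (*Mbp*, plus strand), chr9:120149707-120181484 (*Mobp*, plus), chr17:37010743-37023398 (*Mog*, minus), chr11:100574904-100591729 (*Cnp*, plus), chr19:41061710-41077113 (*Opalin*, minus), chr2:58045113-58052864 (*Ermn*, minus) and chr2:127633226-127656695 (*Mal*, minus). *Mbp* has 16 annotated transcripts, of which 4 start within 1000 bases of the gene start and 12 start at least 79324 bases further on. The upstream starts belong to what are known as the golli transcripts, which are also made outside oligodendrocytes. Counts per gene do not separate the 2 kinds. *Cnp* overlaps *Dnajc7* on the other strand over 8912 bases, and how the counting treated strand is not given in the sources used here, so *Cnp* counts are uncertain to that extent. *Mobp* shares 2447 bases with the annotated gene *Gm38642* on its own strand.

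The nuclei called oligodendrocytes made up clusters 4 and 5 of 40, and were named from 7 markers that do not include the 9 members. The members were not withheld from the clustering itself. With them withheld, 4191 nuclei were called oligodendrocytes, and all 4160 were among them. They carried *St18* at 4963 counts per 1e6 transcripts (CPM) in 97.0% of nuclei, while the OPC marker *Pdgfra* stood at 1.37 CPM and the microglial *C1qb* at 0 counts. *App*, which checks the genotype labels as far as transgene reads align to the mouse gene, was 2898 ± 635 CPM (SD, n = 12) in oligodendrocyte nuclei of Arc wells and 1547 ± 257 CPM (n = 12) in WT wells, and the highest WT well (1863 CPM) lay below the lowest Arc well (1977 CPM). In neurons the WT wells (451 to 575 CPM) and the Arc wells (552 to 794 CPM) overlapped in *App*. Nuclei per well averaged 1705 to 1978 by group, and wells held 4389300 to 30001300 transcripts. WT-veh F3 and M3 stood apart with only 15 and 28 oligodendrocyte nuclei, against 97 to 294 in every other well. Of 58615 combinations of wells over 300 transcripts, 8183 occurred in more than 1 of the 7 sublibraries, so some nuclei share a barcode by chance.

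The 9 genes together took 11322 ± 940 CPM in oligodendrocyte nuclei (SD, n = 24 wells), counted on all transcripts of those nuclei. At least 1 of the 9 was detected in 4157 of 4160 of them. *Mbp* led at 5189 ± 531 CPM, followed by *Mobp* at 2356 ± 448, *Mag* at 1465 ± 194 and *Mog* at 760 ± 127 CPM. *Cldn11* stood at 439 ± 113, *Opalin* at 405 ± 106 and *Mal* at 391 ± 106 CPM, 3 levels that lie within one another's spread over wells. *Ermn* (181 ± 51.8 CPM) and *Cnp* (136 ± 53.5 CPM) were the lowest and also lay within each other's spread. These levels are not divided by transcript length, so they rank counts in the libraries and not molecules per gene.

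The share of oligodendrocyte nuclei with a transcript was also highest for *Mbp* and lowest for *Cnp*. *Mbp* was seen in 97.9%, *Mobp* in 85.3%, *Mag* in 76.9% and *Mog* in 58.5% of nuclei, and *Cnp* in 17.3%. With each nucleus thinned to 500 transcripts, these shares were 89.5%, 64.5%, 51.0%, 30.9% and 6.88%. In neurons, which do not make myelin, *Mbp* was seen in 45.1% of nuclei at a median depth of 8415 transcripts, against 1126 in oligodendrocytes, and in 5.16% after thinning. The other 8 genes were seen in 0.624% to 2.95% of neuronal nuclei.

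**Figure D1:**
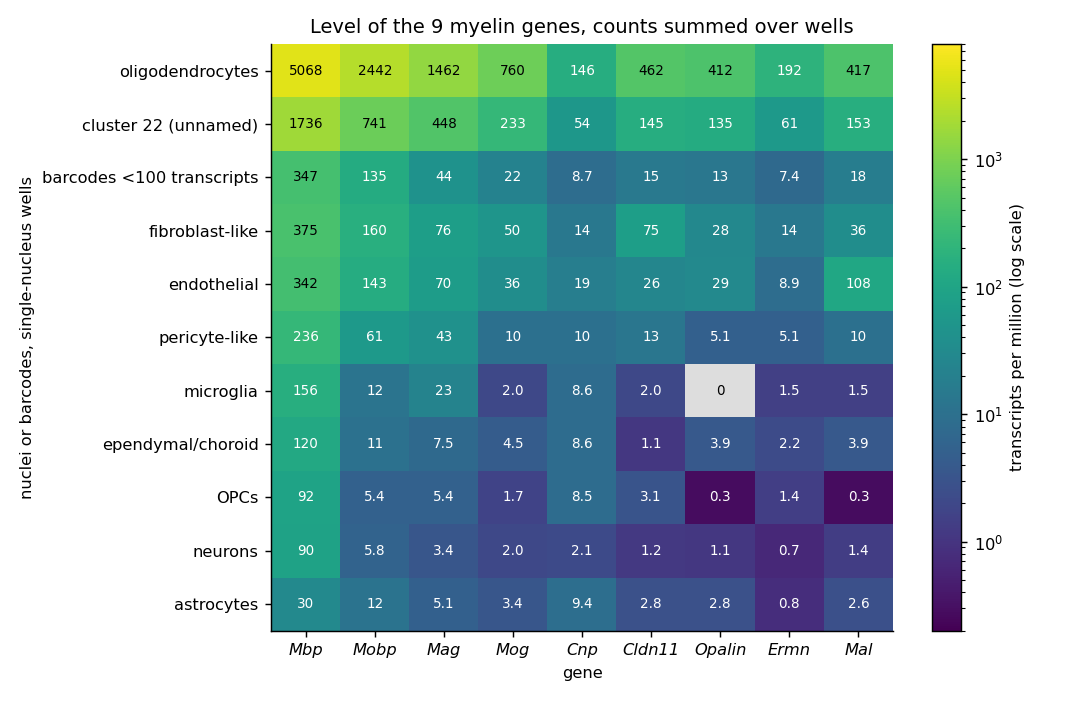
Level of each of the 9 myelin genes (columns) in 9 cell types, in the unnamed cluster 22 and in barcodes under 100 transcripts (rows), from counts summed over wells, as CPM on a logarithmic colour scale. Oligodendrocytes hold the highest level of each gene among the cell types drawn, from 5068 CPM for *Mbp* to 146 CPM for *Cnp*.

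In the other named cell types the summed level was far lower, and it differed between them. It was 108 ± 14.8 CPM in neurons, 66.4 ± 42.6 in astrocytes and 130 ± 72.5 in OPCs (n = 24 wells each), and 169 ± 88.7 CPM in microglia (n = 21). Small clusters next closest to oligodendrocytes weighed on some of these levels. Without cluster 39, which is 30 of the 5474 astrocyte nuclei with the 9 genes at 3190 CPM, astrocytes stood at 39.9 ± 19.5 CPM, and without cluster 21, which is 707 of the 26129 neuronal nuclei with the 9 genes at 1019 CPM, neurons stood at 90.1 ± 11.1 CPM. Leaving them out was an alternative chosen after seeing the data, and whether they hold doublets that passed the doublet filter was not tested. Barcodes with fewer than 100 transcripts, taken as a reading of free RNA, carried 606 ± 129 CPM (n = 24), and 610 CPM when the limit was 50 transcripts. Endothelial nuclei (713 ± 698 CPM, n = 17) and fibroblasts (787 ± 844 CPM, n = 12) had the largest spread between wells relative to their means after pericytes. On pooled counts, *Mag* was 431-fold higher in oligodendrocytes than in neurons and *Mobp* 425-fold, while *Cnp* was 69.1-fold and *Mbp* 56.5-fold higher. Cluster 21 held 57.1% of the neuronal counts of the 8 genes other than *Mbp* and 11.6% of those of *Mbp*. Without it the folds were 1329 for *Mag*, 1026 for *Mobp*, 82.7 for *Cnp* and 62.6 for *Mbp*. Cell types were defined by clustering the same nuclei, so these differences are descriptions without a test.

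The make-up of the myelin counts also differed. *Mbp* was 44.6% of the counts of the 9 genes in oligodendrocytes (95% exact binomial interval 44.2 to 45.0%) and 83.6% in neurons (83.2 to 84.0%). The wells did not overlap, with 40.4 to 51.6% in oligodendrocytes and 74.0 to 89.8% in neurons. In free-RNA barcodes *Mbp* was 56.9% of the 9, with wells from 50.6 to 65.8%, also below every neuronal well. It was 78.0% in OPCs, with wells from 50 to 100%, and 75.7% in microglia, with wells from 0 to 100%. On pooled counts it was 43.7% in astrocytes, 45.3% in endothelial nuclei and 45.8% in fibroblasts, but wells ran from 20 to 84.6% in astrocytes and from 0 to 55.6% in endothelial nuclei, where the mean over 16 wells was 33.0%. Whether the neuronal *Mbp* counts come from the upstream starts of the gene was not tested, since the counts hold no positions.

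Single members took other shares in other cell types. *Cnp* was 13.8% of the 9 genes' counts in astrocytes (interval 11.5 to 16.3%), against 1.29% in oligodendrocytes. Over 24 wells its share ran from 5.26 to 55.6% in astrocytes, with a mean of 19.6%, and from 0 to 2.01% in oligodendrocytes. Cluster 39 held 46.0% of the astrocyte counts of *Mbp* but 5.22% of those of *Cnp*. The *Cnp* level in astrocytes, 9.80 ± 5.87 CPM (n = 24 wells), lay within the spread of that in OPCs (8.27 ± 8.45 CPM, n = 24) and in free-RNA barcodes (8.74 ± 4.65 CPM, n = 24). *Mal* was 13.2% in endothelial nuclei (11.1 to 15.6%), against 3.67%, and its level there was 116 ± 69.1 CPM (n = 17 wells). Over 16 endothelial wells the share of *Mal* ran from 6.67 to 100%, with a mean of 31.0%. *Cldn11* was 8.91% in fibroblasts, against 4.07%. In microglia *Opalin* was not found in any of 1511 nuclei, at a median depth of 1007 transcripts, which allows up to 0.244% of nuclei with a detected transcript (exact binomial) and does not limit the share that express the gene. These intervals cover counting error only.

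**Figure D2:**
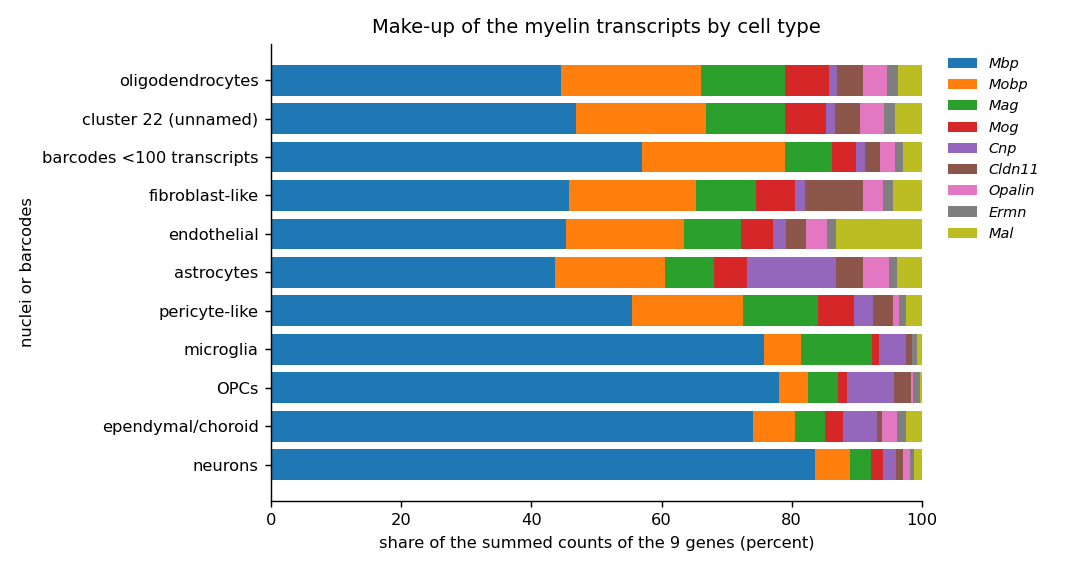
Share of each gene in the summed counts of the 9 myelin genes (horizontal axis, percent; stacked bars) for 9 cell types, the unnamed cluster 22 and barcodes under 100 transcripts. The *Mbp* part is 44.6% in oligodendrocytes, 56.9% in free-RNA barcodes and 83.6% in neurons.

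The first comparison asked whether myelin genes differed in oligodendrocyte nuclei between Arc and WT mice on vehicle. *Cldn11* and *Mag* were higher in Arc-veh, by 1.55-fold and 1.34-fold, and the other 7 members did not pass the test. These 2 of 9 members stand beside 2.76% of all 4669 genes tested (129 genes), with 2.18% of the genes tested being higher in Arc-veh. The fits were edgeR quasi-likelihood tests on counts summed per well, adjusted for sex, with p-values adjusted over all genes tested by the Benjamini-Hochberg method. In such bulk sums, a change in which nuclei are sampled and a change within each nucleus cannot be told apart.

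*Cldn11* read 371, 375, 329, 294, 372 and 242 CPM in WT-veh wells F1, F2, F3, M1, M2 and M3, and 486, 561, 487, 538, 564 and 433 CPM in the same order in Arc-veh. The lowest Arc-veh well exceeded the highest WT-veh well, which made *Cldn11* 1 of 9 members without overlap, beside 2.1% of all genes tested. No member was without overlap between Arc-PMX and Arc-veh or between WT-PMX and WT-veh, where 0.0643% and 0.257% of all genes tested were. The log2 fold change was 0.63 (SE 0.16, adjusted p = 0.0192), and the 95% interval of the fold ran from 1.24 to 1.94.

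*Mag* read 1268, 1263, 1396, 1180, 1311 and 1356 CPM in WT-veh wells, and 1831, 1666, 1642, 1384, 1542 and 1553 CPM in those of Arc-veh. The groups touched at a single point, where Arc-veh M1 (1384 CPM) lay below WT-veh F3 (1396 CPM). The log2 fold change was 0.42 (SE 0.11, adjusted p = 0.0256), with a fold interval of 1.15 to 1.56. Between WT-PMX and Arc-PMX the genotypes were not tested. There *Mag* wells ran from 1264 to 1728 CPM in WT-PMX and from 1184 to 1694 CPM in Arc-PMX. Those of *Cldn11* ran from 304 to 505 CPM in WT-PMX and from 337 to 689 CPM in Arc-PMX.

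Both calls were close to the threshold. Without wells under 30 nuclei, which leaves out WT-veh F3 and M3, *Cldn11* stood at 0.57 (adjusted p = 0.0494) and *Mag* at 0.38 (adjusted p = 0.0502). Leaving out WT-veh M1 ended both calls (adjusted p = 0.0898 for *Cldn11* and 0.0585 for *Mag*), and leaving out WT-veh F1, WT-veh F2 or Arc-veh F1 ended that of *Mag* (0.0602, 0.0656 and 0.0550).

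Depth and the mix of clusters moved with genotype. The deeper of the 2 oligodendrocyte clusters, cluster 5, held 22.8 ± 16.5% of these nuclei in WT-veh wells, 38.2 ± 24.4% under WT-PMX, and it held 63.8 ± 30.7% in Arc-veh and 57.4 ± 26.9% in Arc-PMX (n = 6 each). Median transcripts per oligodendrocyte nucleus were 847 ± 199, 1104 ± 442, 1392 ± 473 and 1390 ± 662 in the same order. Within cluster 4 alone *Cldn11* stood at 0.50 (adjusted p = 0.574) and *Mag* at 0.25 (0.706), and within cluster 5 alone at 0.55 (0.226) and 0.37 (0.215). With every nucleus thinned to 500 transcripts they stood at 0.59 (0.0852) and 0.38 (0.115). All these values kept the sign, and 0 of the 9 members passed in any of these 3 fits. Fewer genes passed in each of these fits than the 129 of 4669 in the main fit. The fit of cluster 5 had 4 WT-veh wells, since F3 and M3 held only 3 and 1 of its nuclei. In cluster 4 the smallest well, Arc-PMX F1, held 10 nuclei. A member that did not pass within a cluster is therefore not shown to be unchanged there.

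Genes that mark other cell types were also read in oligodendrocyte nuclei. The summed level of 10 neuronal genes in oligodendrocyte nuclei was 2793 ± 399 CPM in WT-veh wells and 1805 ± 444 CPM in those of Arc-veh, with ranges of 2213 to 3297 and 1263 to 2522 CPM. That of 8 astrocyte genes was 494 ± 216 and 301 ± 44.6 CPM, and that of 8 microglial genes 48.7 ± 29.1 and 45.7 ± 14.9 CPM. Of the genes past the low-count filter, 0 of 10 neuronal, 0 of 3 astrocyte and 0 of 1 microglial genes passed the test between these groups. With the neuronal level as a covariate, *Cldn11* stood at 0.72 (adjusted p = 0.0109) and *Mag* at 0.36 (adjusted p = 0.184).

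**Figure D3:**
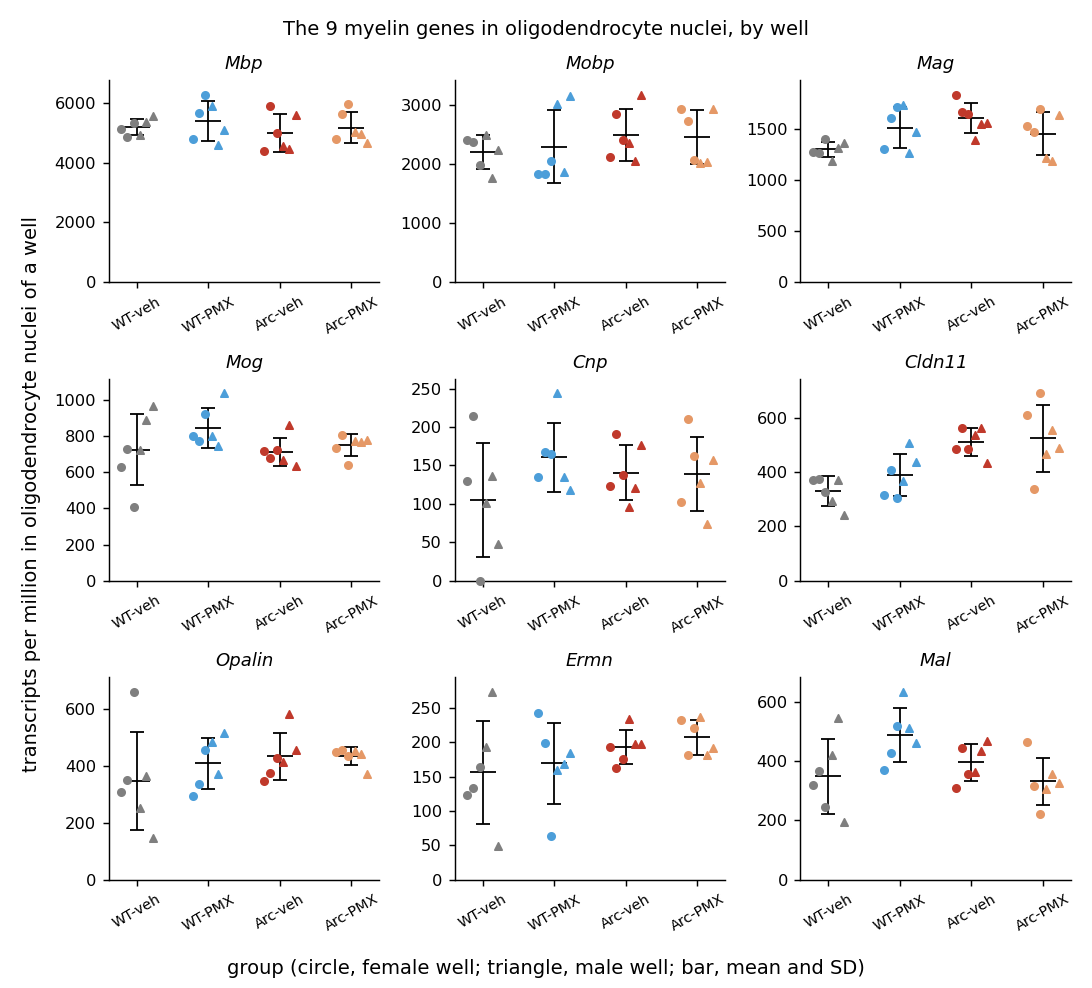
Level of each of the 9 genes in oligodendrocyte nuclei (vertical axis, CPM; 1 panel a gene) by group, with 1 point a well (circles female, triangles male) and bars for the mean and SD of 6 wells. *Cldn11* runs from 242 to 375 CPM in WT-veh wells and from 433 to 564 CPM in those of Arc-veh, without overlap.

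*Opalin*, the sialoglycoprotein gene, came next with a log2 fold change of 0.51 (SE 0.16, adjusted p = 0.0882). Its wells ran from 145 to 657 CPM in WT-veh, both ends being the wells with 28 and 15 oligodendrocyte nuclei, and from 345 to 582 CPM in Arc-veh. *Mobp* stood at 0.26 (SE 0.14, adjusted p = 0.492) and *Ermn* at 0.22 (SE 0.20, adjusted p = 0.771). The most abundant member, *Mbp*, stood at 0.07 (SE 0.10, adjusted p = 0.869), and the 95% interval of its fold ran from 0.913 to 1.21. *Mal* (0.07, SE 0.16), *Cnp* (0.04, SE 0.24) and *Mog* (0.02, SE 0.13) had adjusted p-values of 0.934, 0.998 and 1.0. All 9 estimates were positive, with a median of 0.22 against 0.02 over all genes tested, but some of the smaller ones changed sign without the small wells. Without WT-veh F3 and M3, *Cnp*, *Mal* and *Mog* stood at -0.05, -0.02 and -0.02. The TMM scaling factors of these 2 wells were 1.40 and 1.15, against 0.927 to 0.981 in Arc-veh wells. The plain means over wells were lower in Arc-veh for *Mbp* (4988 against 5197 CPM) and for *Mog* (714 against 725 CPM). Plain means also give each well the same weight, unlike the fit, so they do not isolate the scaling.

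The second comparison asked whether PMX205 altered the genes in Arc mice. No member passed between Arc-PMX and Arc-veh, where edgeR called 0.0214% of genes (1 of 4669; 105 genes, none of them a member, had an unadjusted p under 0.05). The estimates ran from -0.23 for *Mal* (SE 0.15) to 0.10 for *Ermn*, and 4 of 9 were positive. *Cldn11* read 610, 337, 689, 466, 555 and 489 CPM in Arc-PMX wells F1 to F3 and M1 to M3, a range that holds all 6 Arc-veh wells. Its fold was 1.006 with an interval of 0.824 to 1.23. *Mag* read 1521, 1465, 1694, 1211, 1184 and 1631 CPM, with a log2 fold change of -0.16 (SE 0.10, adjusted p = 1.0).

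In WT mice, PMX205 also gave 0 called members, and edgeR called 0% of genes (0 of 4669; 179 at an unadjusted p under 0.05, and 6 genes called with no filter on low counts). All 9 estimates were positive, from 0.04 to 0.36. *Mag* stood at 0.29 (SE 0.11), *Opalin* at 0.36 (SE 0.17) and *Mal* at 0.33 (SE 0.17), each with an adjusted p of 1.0, and 2 of 9 members had an unadjusted p under 0.05. This comparison and the first share the WT-veh wells. The test of whether the PMX205 effect differed between genotypes called 0 of 9 members (2 at an unadjusted p under 0.05) and 0% of genes (121 genes at an unadjusted p under 0.05, and 3 called with no filter on low counts). Its largest estimates were -0.55 for *Mal* (SE 0.23) and -0.45 for *Mag* (SE 0.15), both with an adjusted p of 1.0.

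**Figure D4:**
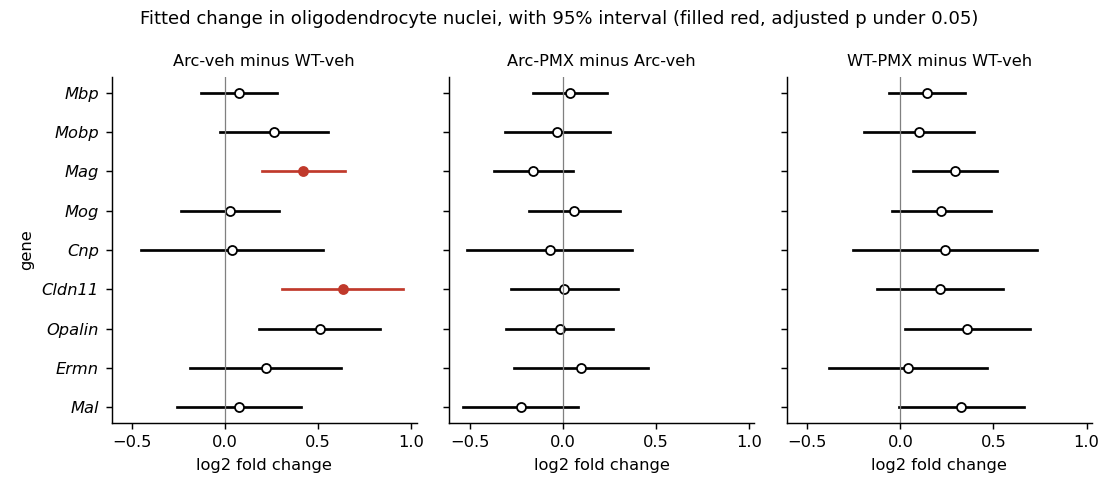
Fitted log2 fold change of each of the 9 genes in oligodendrocyte nuclei (horizontal axis) with its 95% interval, for 3 comparisons between groups of 6 wells, red where the adjusted p is under 0.05. *Cldn11* at 0.63 and *Mag* at 0.42 in Arc-veh against WT-veh are the red points.

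Other genes of the oligodendrocyte program were read from lists. Of 24 tested among 30 other myelin and oligodendrocyte membrane genes, 1 was higher in Arc-veh than in WT-veh, the tetraspanin gene *Cd9*, at 139 ± 32.2 against 81.6 ± 19.6 CPM (log2 fold change 0.82, SE 0.23, adjusted p = 0.0354). The list's median was 0.10. Of 10 tested genes of myelin lipids 0 passed, with *Aspa*, which releases acetate from N-acetylaspartate, at -0.04 and the fatty acid hydroxylase *Fa2h* at -0.08. Of 13 tested regulators 0 passed, with the zinc finger gene *St18* at 0.11 and the RNA-binding *Qk* at 0.20. Of 5 tested genes of newly formed oligodendrocytes 0 passed, with *Bcas1* at 0.22 and *Tns3* at 0.36. *Aspa* and *St18* were also among the markers that named the clusters.

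Among 14 genes reported for oligodendrocytes in disease models, 4 passed the low-count filter and 3 were higher in Arc-veh. The complement gene *C4b* rose from 61.7 ± 53.9 to 1207 ± 639 CPM (log2 fold change 4.08, SE 0.29, adjusted p = 8.7e-14), a larger estimate than that of any myelin gene. The transcription factor *Stat3* stood at 1.59 and the cytokine *Il33* at 0.60 (adjusted p = 0.00351). Between Arc-PMX and Arc-veh 0 genes of any of these lists passed, and *C4b* stood at -0.12.

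Across 22 wells with at least 30 oligodendrocyte nuclei, the genes whose level was most like the mean of the 9 members were *Ptprf* and *Prox1* (both r = 0.76), *Scrn1* (0.70), *Trf* (0.69) and *Atg2b* (0.68), among 4952 genes compared. The members themselves ran from 0.72 (*Opalin*) and 0.59 (*Mag*) to 0.17 (*Mog*), although each is part of that mean. Among the 36 pairs of members r ran from -0.35 to 0.51 with a median of 0.08. The wells share group differences and depth, so these values are descriptions.

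Myelin transcripts in other cell types were compared between the groups in the same way. In astrocytes *Mbp* was the only member past the low-count filter, and it was lower in Arc-veh than in WT-veh as long as a small cluster was counted. Its wells read 28.9, 51.3, 97.0, 41.9, 66.2 and 35.9 CPM in WT-veh wells, and 7.36, 24.6, 16.9, 11.9, 9.53 and 23.9 CPM in those of Arc-veh, without overlap (log2 fold change -1.70, SE 0.40, adjusted p = 0.00208). Of all genes tested in astrocytes 6.71% were without overlap between these groups. In astrocytes 12.5% of 7332 genes passed, and 4.9% were lower, so a call was far from rare there. Cluster 39, the 30 astrocyte nuclei next closest to oligodendrocytes, held 46.0% of all astrocyte *Mbp* counts. Of its nuclei 17 came from WT-veh and 10 from WT-PMX wells, but 2 from Arc-veh and 1 from Arc-PMX wells, and *Mbp* stood at 1480 CPM in it. Without these 30 nuclei, *Mbp* was 16.8 ± 9.39 CPM in the WT-veh wells and 14.03 ± 8.27 CPM in the Arc-veh wells, and the log2 fold change was -0.36 (SE 0.43, adjusted p = 0.708). Between Arc-PMX and Arc-veh *Mbp* stood at 0.25 with these nuclei (adjusted p = 1.0), where 0.0136% of genes passed.

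In neurons 8 members were tested and 0 passed, beside 0.0527% of 15181 genes (8 called; 1234 at an unadjusted p under 0.05). All 8 estimates for Arc-veh against WT-veh were negative, from -0.17 for *Mbp* to -1.39 for *Mal*, with adjusted p-values of 0.370 to 0.656 and 6 of 8 at an unadjusted p under 0.05. Those for Arc-PMX against Arc-veh, which use the same Arc-veh wells, were all positive, from 0.16 to 0.995, and 0 of 15181 genes passed (309 at an unadjusted p under 0.05, 4 of the 8 members among them). Without cluster 21, 5 members could be tested and 0 passed. *Mag* changed sign, from -0.96 to 0.19, and the other 4 estimates stayed negative, while *Mbp* was 91.3% of the 9 genes' counts in the remaining neurons.

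In OPCs *Mbp* stood at 0.20 between Arc-veh and WT-veh (SE 0.38, adjusted p = 0.943) where 1.13% of 3097 genes passed, and at -0.56 between Arc-PMX and Arc-veh, where 0.0323% passed. In microglia *Mbp* stood at 0.94 (SE 0.46, adjusted p = 0.235), where 10.9% of 2379 genes passed. The 4 usable WT-veh wells read 302, 71.0, 60.8 and 0 CPM from 19 to 47 microglial nuclei each, and the Arc-veh wells read 94.6 to 227 CPM from 97 to 159 nuclei. Between Arc-PMX and Arc-veh it stood at -0.15, and 0 of 2379 genes passed (46 at an unadjusted p under 0.05).

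**Figure D5:**
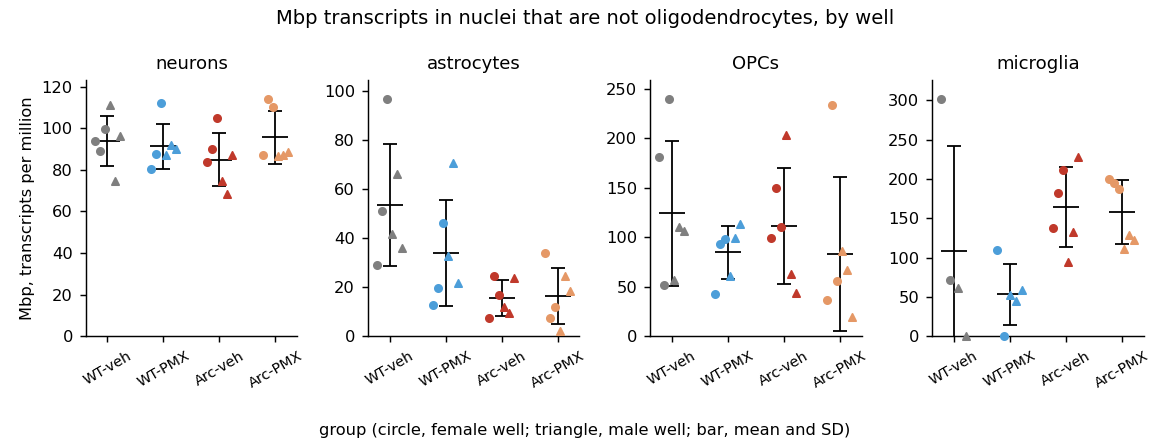
Level of *Mbp* (vertical axis, CPM) in neurons, astrocytes, OPCs and microglia by group, with 1 point for each well of at least 10 nuclei. Astrocytes run from 28.9 to 97.0 CPM in WT-veh wells and from 7.36 to 24.6 CPM in those of Arc-veh, with cluster 39 included.

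The level in other nuclei was also set against the oligodendrocyte share of each well. That share was 6.65 ± 3.94% in WT-veh, 9.10 ± 3.95% in WT-PMX, 11.8 ± 1.57% in Arc-veh and 10.8 ± 2.85% in Arc-PMX. Against it, the sum of the 9 genes in neurons gave a Pearson r of -0.47 (permutation test, n = 24, p = 0.0201, adjusted p = 0.0301 over 6 tests) and a Spearman rho of -0.55 (adjusted p = 0.0213). Without the 2 wells farthest from the median, WT-veh F3 and M3, r was -0.49 (adjusted p = 0.0652), and within the groups r was -0.20, -0.75, -0.27 and -0.33. In astrocytes r was -0.51 (adjusted p = 0.0213) and rho -0.52 (adjusted p = 0.0213), r was -0.44 without the same 2 wells (adjusted p = 0.0768), and within the groups r was -0.03, -0.32, 0.10 and -0.56. Neither relation held once clusters 21 and 39 were left out, with r of -0.28 in neurons (adjusted p = 0.520) and -0.10 in astrocytes (adjusted p = 0.639). In microglia r was 0.16 (n = 21, adjusted p = 0.495) and rho 0.22 (adjusted p = 0.413).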

How the data were processed

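The authors aligned the reads to mm10 with split-pipe and deposited, for each of 7 sublibraries, raw counts of distinct transcripts per gene and barcode, with no normalization. The same 24 first-round wells of nuclei and 24 of CD11b-selected cells ran through all sublibraries. Groups and sex came from the deposited sample sheet. The study's reporting form states that 1 WT sample was dropped because its expression looked like that of an Arctic animal. The sources used here do not say which, so all wells were kept, and in oligodendrocyte nuclei no WT well reached the Arc range of *App*. Nuclei had over 300 and under 50000 transcripts, over 400 genes and under 1% mitochondrial transcripts. Scrublet scores over 0.25 removed 1253 doublets. Nuclei were clustered in scanpy 1.11.5 (2000 variable genes, 30 components, 15 neighbours, Leiden resolution 1.5) and clusters were named from at least 3 markers, none of them a member. Of these nuclei 3084 stayed unnamed, including clusters 22 (697 nuclei) and 36 (79 nuclei). The rule on leading genes was set after the clusters were seen. Total transcripts per well of nuclei ran from 4389300 to 30001300.

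Counts were summed per well (at least 10 nuclei) and cell type and tested with edgeR 4.0.16 (R 4.3.3; TMM, filterByExpr, glmQLFit and glmQLFTest), with 4 groups in 1 fit, sex as covariate and Benjamini-Hochberg adjustment at 0.05. CPM is per 1e6 transcripts of the same nuclei. Correlations used 100000 permutations. The tests were tested on simulated data. DESeq2 1.42.0 and other filters, nuclei and wells were alternatives, of which 5 were chosen after seeing the data (each oligodendrocyte cluster alone, thinned nuclei, the neuronal level as covariate, wells left out in astrocytes, and clusters 21 and 39 left out). The members and gene lists were chosen with earlier results of these data known. In each list the text names up to 4 genes that passed, or else the 2 of highest level, and the 5 genes most like the members' mean. The single-cell wells, from pools of 2 to 3 mice and cleared of myelin, entered no comparison. 1 gene that the rule names is not reported here.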

Additional observations from a re-analysis of the deposited data

Results flagged for a closer look

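In 52 groups of wells, 2 held a well whose gap to the nearest other well, divided by the range of the group, passed Dixon's limit (0.625 for 6 wells), and chance alone flags about 5% of groups. *Opalin* in oligodendrocyte nuclei of Arc-PMX M3 read 370 CPM, against 434 to 455 CPM in the other wells of its group (gap over range 0.756). *Mbp* in neurons of WT-PMX F3 read 112 CPM, against 80.3 to 91.7 CPM in the others (0.640).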

How the results depend on the processing

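For *Mag* and *Cldn11* in oligodendrocyte nuclei between Arc-veh and WT-veh, 16 alternatives gave log2 fold changes of 0.25 to 0.95 and 0.50 to 1.06, and 10 and 13 of them passed the threshold. The number of members called was 1 with no filter on low counts, with wells of at least 30 nuclei and with the neuronal level as a covariate (*Cldn11* each time), 0 in either cluster alone and with thinned nuclei, 4 with nuclei named by marker score (*Mobp*, *Mag*, *Cldn11*, *Opalin*), 3 (*Mag*, *Cldn11*, *Opalin*) with doublets kept, with only the 2 groups or with nuclei over 500 transcripts, and 0 to 2 when 1 well was left out. Genes called numbered 258 with doublets kept, 443 by marker score, 11 in cluster 4, 68 in cluster 5, 62 with thinned nuclei, 75 with the covariate, and 80 to 143 with 1 well left out. The main fit called 2 of 9 members and 129 of 4669 genes, and both counts were higher with doublets kept and by marker score. For the other fits named, the number of genes called is not given here, so their member counts stand without a comparison to all genes. The cause of these differences was not tested.

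Between Arc-PMX and Arc-veh, 7 genes were called with no filter, 0 by DESeq2, with doublets kept or with only the 2 groups, and 0 to 1 with 1 well left out. With no filter, 6 genes were called between WT-PMX and WT-veh and 3 for the interaction. Between Arc-veh and WT-veh, the fits with no filter called 3 members in neurons (*Mobp*, *Mag*, *Mal*) and 3 in astrocytes (*Mbp*, *Mag*, *Mog*). The number of all genes called in these fits is not given here. In astrocytes 0 members were called between Arc-veh and WT-veh with doublets kept, where *Mbp* was not past the low-count filter, by marker score, and without cluster 39. The correlation with the oligodendrocyte share was -0.28 in neurons and -0.10 in astrocytes without clusters 21 and 39, -0.20 in astrocytes with doublets kept, -0.51 to -0.49 in neurons, -0.44 to -0.23 in astrocytes and -0.083 to 0.17 in microglia without *Mbp* or without the 2 farthest wells.

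Estimates that changed sign between Arc-veh and WT-veh in oligodendrocytes, none of them called, were *Cnp* at -0.048 (at least 30 nuclei), -0.16 (cluster 5), -0.18 (covariate) and -0.067 to 0.35 (1 well left out), *Ermn* at -0.034 (thinned), *Mal* at -0.020 (30 nuclei), -0.20 (cluster 4) and -0.047 (cluster 5), *Mbp* at -0.038 (cluster 4), -0.046 (cluster 5) and -0.014 (covariate), *Opalin* at -0.042 (cluster 4), and *Mog* at -0.0036 (DESeq2), -0.022 (30 nuclei), -0.047 (over 500 transcripts), -0.095 (cluster 5), -0.082 (thinned), -0.019 (covariate) and -0.024 to 0.11 (1 well left out). Between Arc-PMX and Arc-veh *Cldn11* stood at -0.0017 (no filter), -0.21 (score), -0.029 (over 500 transcripts), -0.099 (cluster 4), -0.0049 (cluster 5), -0.0083 (thinned), -0.018 (covariate) and -0.074 to 0.11 (1 well left out). *Mag* in neurons stood at 0.19 without cluster 21. *Mbp* stood at -0.27 to 0.47 in astrocytes (Arc-PMX against Arc-veh, 1 well left out), at -0.027 (DESeq2) and -0.19 (doublets kept) in OPCs between Arc-veh and WT-veh, at 0.32 (score) in OPCs between Arc-PMX and Arc-veh, and at -0.73 and 0.77 (score) in microglia in these 2 comparisons.

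Replicate numbers are shared between groups, and whether they pair the wells was not tested. Of 36 same-number pairs, 7 had a correlation of deviations over 0.1. The median was 0.043 for same-number pairs and -0.0072 for other pairs between groups, and 9 of 24 wells lay closest to their own number. A number here includes the sex (F1 to M3), so same-number pairs share sex while other pairs mix the sexes. These values therefore do not separate pairing from sex, and the count expected by chance was not worked out. With the replicate number as a block, 2 members and 113 genes were called between Arc-veh and WT-veh and 0 genes between Arc-PMX and Arc-veh.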

Other observations

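A cluster of 697 nuclei with a median of 4238 transcripts, number 22, carried markers of microglia and of oligodendrocytes and was left unnamed. The 9 myelin genes took 3962 ± 1131 CPM in it (SD over wells), between oligodendrocytes and all named types, and *Mbp* was 46.8% of their counts, with wells from 40.8 to 57.0%. By group the sum was 4489 ± 1226 CPM in WT-veh, 4727 ± 1162 in WT-PMX, 2978 ± 326 in Arc-veh (n = 5) and 3490 ± 646 in Arc-PMX. In the wells of CD11b-selected cells, the 9 genes took 195 ± 74.4 CPM (n = 22) and *Mbp* was 70.2% of their counts.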
